A study of Mus musculus with 8 samples.

Results

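The IL-6 family comprises cytokines that signal through a shared receptor chain, gp130. The genes described here are 5 of its ligands, Il6, Il11, Lif, Osm and Clcf1, and 5 receptor chains, Il6ra, Il6st (gp130 itself), Il11ra1, Lifr and Osmr. They were chosen by name, with earlier results of these data known. All 10 were found among the 18824 genes of the deposited table and passed the filter on low counts. Bulk RNA sequencing was done on whole mouse lung, with 8 libraries in 2 groups of 4: WT_BLM, wild type given bleomycin (BLM), and KO_BLM, Slc15a3-/- given bleomycin. Bleomycin is a DNA-breaking drug that causes inflammation and scarring in mouse lung, and SLC15A3 (also PHT2) is a transporter of histidine and small peptides in endolysosomal membranes. All mice were 8 weeks old, received intratracheal bleomycin (2 mg/kg in 50 µl saline) on day 0, and lungs were taken on day 21. The labels name no strain and do not say how the knockout was made or whether it is limited to a cell type, and saline-treated lungs are not analysed here, so each difference is between genotypes after bleomycin and not a response to bleomycin. The question the comparison addresses is how loss of Slc15a3 alters gene expression in the injured lung.

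Ligands of this family bring gp130 together with a partner chain, and the paired chains activate JAK kinases, which phosphorylate STAT3. IL-6 and IL-11 first bind their own alpha receptors (IL6R, IL11RA) and then a gp130 pair. LIF uses gp130 with LIFR, oncostatin M in the mouse mainly uses gp130 with OSMR, and CLCF1 binds CNTFR, gp130 and LIFR. STAT3 induces SOCS3, which binds gp130 and dampens the signal. In lung, IL-6, IL-11 and oncostatin M are best known from inflamed and scarred tissue, where fibroblasts and macrophages are among their sources.

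Total counts were 18878835 to 20180831 per WT_BLM library and 17627999 to 18471445 per KO_BLM library. The targeted gene fell from 45.8 to 55.7 CPM in WT_BLM to 0.279 to 0.938 CPM in KO_BLM (CPM, counts scaled to TMM-corrected library size; log2 fold change −6.36 with SE 0.23, adjusted p = 9.36e-07 by edgeR). A gene is said to have risen or fallen in KO_BLM only where the adjusted p of edgeR's quasi-likelihood test, over all 14746 genes tested, was under 0.05. At that threshold 41.5% of all tested genes were called, 20.7% higher and 20.8% lower (3057 and 3061 genes). When library sizes were not corrected by TMM, 3789 genes were higher and 2253 lower. Within groups, WT_BLM replicates 2 and 4 lay farthest apart, and KO_BLM replicates 1 and 2 apart from 3 and 4. Nothing in the labels ties each library to its own animal. The p-values therefore cover only the variation among these 8 samples, some of which may be technical. Lung epithelial markers such as Sftpc and Ager were abundant in all 8 libraries. Markers of tissues next to lung summed to 5.11 to 48.2 CPM in WT_BLM and 12.8 to 101 CPM in KO_BLM. Among them the heart muscle gene Myh6 was uneven. It was at 30.6, 0.893, 6.11 and 9.42 CPM across WT_BLM replicates 1 to 4 and 2.09, 7.76, 44.2 and 62.6 CPM across KO_BLM replicates 1 to 4. Of the 4 that were tested only Ckm, a muscle gene, was called, higher in KO_BLM (edgeR adjusted p = 0.0231).

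The promoters of Lif, Il6 and Il11, the 3 ligand genes with the largest decreases, are shown as the 250 bases before the RefSeq start site (GRCm38.p6, the mm10 assembly), because each holds a match to the AP-1 motif. Capitals mark matches on either strand to AP-1 (TGANTCA), NF-kB (the GGGATTTTCC of Il6 with any base as the fifth letter) or C/EBP (TTGCNNAA). No match to TTCNNNGAA, the STAT motif, was found in them. Il11 has a pair of RefSeq starts, of which the downstream one is shown, and which start was used cannot be told from counts per gene.
Il6, chr5:30012864-30013113, plus strand: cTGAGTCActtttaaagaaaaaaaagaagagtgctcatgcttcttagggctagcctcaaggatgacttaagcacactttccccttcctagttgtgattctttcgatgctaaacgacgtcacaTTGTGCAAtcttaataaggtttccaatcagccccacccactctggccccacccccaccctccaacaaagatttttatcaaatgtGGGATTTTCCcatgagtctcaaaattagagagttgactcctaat
Il11, chr7:4778142-4778391, minus strand: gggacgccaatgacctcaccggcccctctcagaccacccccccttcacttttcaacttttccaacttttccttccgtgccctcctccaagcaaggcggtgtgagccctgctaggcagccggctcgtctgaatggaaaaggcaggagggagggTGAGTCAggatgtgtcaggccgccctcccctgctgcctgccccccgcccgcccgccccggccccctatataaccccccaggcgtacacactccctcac
Lif, chr11:4257318-4257567, plus strand: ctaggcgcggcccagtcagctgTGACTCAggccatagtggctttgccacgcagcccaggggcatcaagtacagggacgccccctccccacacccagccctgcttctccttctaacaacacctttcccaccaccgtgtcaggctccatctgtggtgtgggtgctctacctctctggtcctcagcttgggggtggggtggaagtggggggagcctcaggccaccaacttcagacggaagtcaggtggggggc

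The AP-1 match is TGAGTCA in Il6, beginning 249 bases before the start, TGAGTCA in Il11 at 98 bases and TGACTCA in Lif at 228 bases. Of 32851 promoter windows of this length in the RefSeq table, 6.75% hold an AP-1 match. Only Il6 among the windows of the members also holds an NF-kB match, GGGATTTTCC at 44 bases, and a C/EBP match, TTGTGCAA at 128 bases. The NF-kB letters were written from this Il6 site, so its match was fixed in advance and the share below does not measure its rarity. The shares of all windows are 0.356% for NF-kB, 9.56% for C/EBP and 7.02% for STAT. The other windows of the table that belong to members, the upstream start of Il11 and those of Il6ra, Il6st, Il11ra1, Lifr and Osmr, hold none of the 4 motifs. Osm and Clcf1 were not in the promoter table. These matches describe letters and not binding, and the motifs were chosen with results of these data known.

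Of the 10 genes, 6 fell in KO_BLM (Il6, Il11, Lif, Osm, Il6st and Osmr), 2 rose (Il11ra1 and Lifr) and 2 were not called (Clcf1 and Il6ra). Of all tested genes, 20.8% fell and 20.7% rose. The median log2 fold change of the 10 was −0.53, against 0.0025 over all tested genes. Among ligands all 4 that passed the test fell, by 1.64-fold to 6.56-fold, while the receptors that passed moved both ways, by 1.22-fold to 1.89-fold. The plot of levels by library shows each of the 8 values for every member. In bulk lung, fewer cells that express a gene and less of its RNA per cell cannot be told apart.

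**Figure D1:**
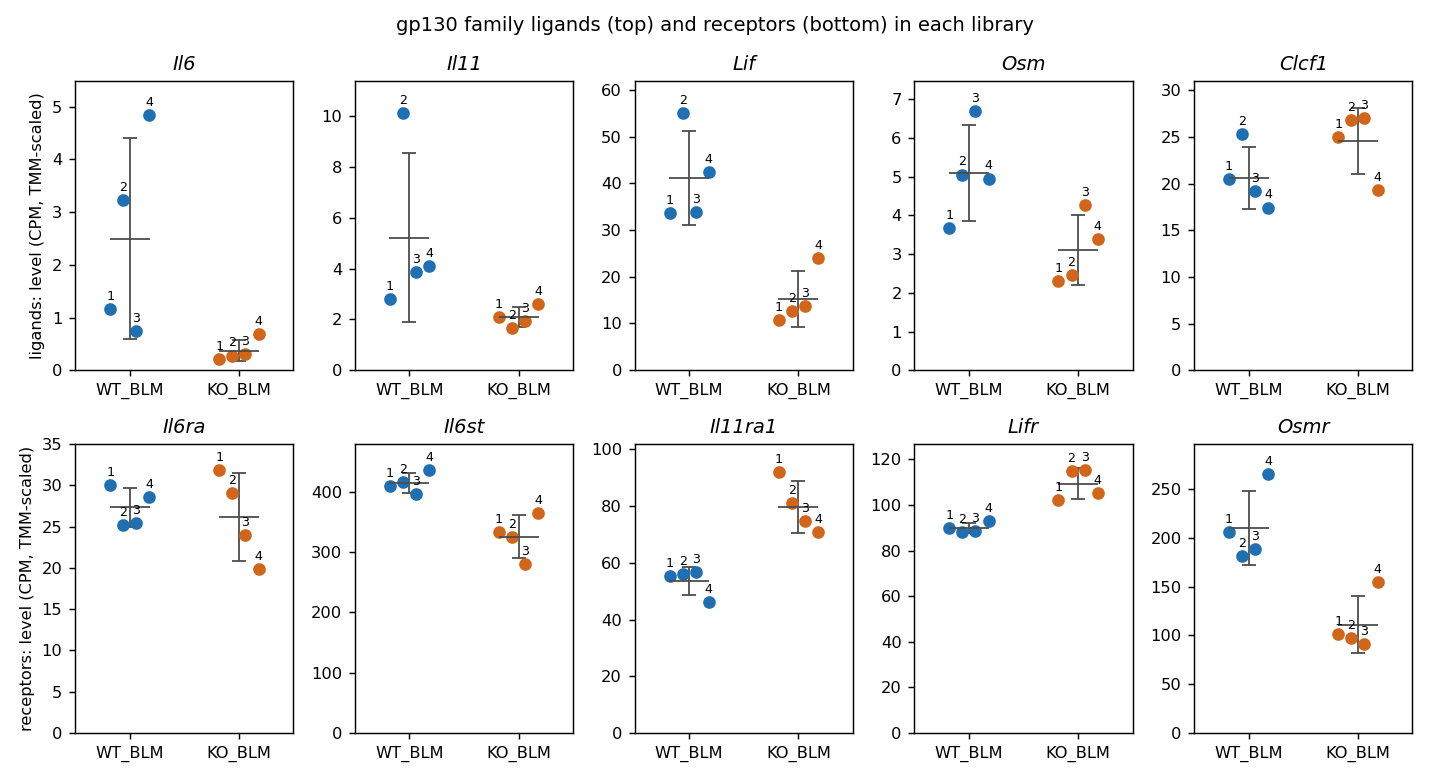
Level of each member in CPM (linear axes from 0) for the 4 WT_BLM libraries (blue) and 4 KO_BLM libraries (orange), numbered by replicate, with the mean and SD. Lif and Osmr are lower in every KO_BLM library than in any WT_BLM library, Il11ra1 and Lifr are higher, and Osm, Clcf1 and Il6ra overlap between the groups.

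Il6 (NCBI Gene 16193, mm10 chr5:30013114-30019975) encodes interleukin 6, the founding ligand of the family and an inducer of acute phase proteins. It was scarce: the counts were 21, 65, 14 and 89 across WT_BLM replicates 1 to 4 and 4, 5, 6 and 13 across KO_BLM replicates 1 to 4. In CPM these were 1.15, 3.22, 0.750 and 4.85 against 0.220, 0.279, 0.313 and 0.678. The groups did not overlap, but the gap was narrow, with WT_BLM replicate 3 just above KO_BLM replicate 4, and WT_BLM replicates 2 and 4 far above the other two. The exact Poisson 95% intervals of those neighbouring counts, 7.65 to 23.5 and 6.92 to 22.2, overlap nearly in full and cover counting error only. The fitted decrease was 6.56-fold (log2 fold change −2.71 with SE 0.64, adjusted p = 0.00823 by edgeR).

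Lif (NCBI Gene 16878, chr11:4257568-4272514), leukaemia inhibitory factor, was the ligand gene with the smallest p. Its levels were 33.5, 55.0, 33.9 and 42.4 CPM across WT_BLM replicates 1 to 4 and 10.7, 12.7, 13.7 and 24.1 CPM across KO_BLM replicates 1 to 4. All KO_BLM libraries lay below all WT_BLM libraries, and KO_BLM replicate 4 was nearest to them. The means were 41.2 ± 10.1 and 15.3 ± 6.01 CPM (SD, n = 4), a 2.70-fold decrease (log2 fold change −1.43 with SE 0.26, adjusted p = 0.00219 by edgeR).

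Il11 (NCBI Gene 16156, chr7:4772373-4782907) encodes interleukin 11, a cytokine that acts on fibroblasts. It stood at 2.80, 10.1, 3.86 and 4.08 CPM across WT_BLM replicates 1 to 4 and at 2.09, 1.67, 1.93 and 2.61 CPM across KO_BLM replicates 1 to 4. The groups did not overlap, though WT_BLM replicate 1 was close to KO_BLM replicate 4, and WT_BLM replicate 2 was the highest by far. The decrease was 2.51-fold (log2 fold change −1.33 with SE 0.39, adjusted p = 0.0211 by edgeR). The call did not hold without KO_BLM replicate 2 (edgeR adjusted p = 0.0601) or 3 (0.0506), nor in the 3 limma fits on FPKM (0.0610 to 0.0926), and its adjusted p ran from 0.00348 to 0.0926 across alternatives. Without WT_BLM replicate 2, its highest library, Il11 was still called (edgeR adjusted p = 0.0314).

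Osm (NCBI Gene 18413, chr11:4236785-4241026), oncostatin M, is made mainly by myeloid and T cells. It was at 3.68, 5.06, 6.70 and 4.96 CPM across WT_BLM replicates 1 to 4 and 2.31, 2.46, 4.28 and 3.39 CPM across KO_BLM replicates 1 to 4. The groups overlapped, since KO_BLM replicate 3 exceeded WT_BLM replicate 1. Osm fell 1.64-fold (log2 fold change −0.71 with SE 0.26, adjusted p = 0.0471 by edgeR). That call is the least secure of the 8, being lost in 10 of 19 alternatives: when WT_BLM replicate 2 (adjusted p = 0.0732), 3 (0.126) or 4 (0.0669) was left out, likewise KO_BLM replicate 1 (0.112), 2 (0.125) or 4 (0.0664), with uncorrected library totals (0.0880) and in the 3 limma fits on FPKM (0.0691 to 0.0951). Its adjusted p ran from 0.0113 to 0.126 over the alternatives.

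Clcf1 (NCBI Gene 56708, chr19:4214238-4223505), cardiotrophin-like cytokine factor 1, was the ligand that did not pass. It read 20.5, 25.3, 19.2 and 17.4 CPM across WT_BLM replicates 1 to 4 and 25.01, 26.8, 27.0 and 19.3 CPM across KO_BLM replicates 1 to 4. Of the KO_BLM libraries 3 were at or near the top of the range and replicate 4 lay among the WT_BLM values. The log2 fold change was 0.25 (SE 0.14, edgeR adjusted p = 0.182).

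Among the receptors, Il6st (NCBI Gene 16195, chr13:112464070-112506860), the gp130 chain that all of these ligands share, was 1.27-fold lower. Its levels were 410, 416, 397 and 437 CPM across WT_BLM replicates 1 to 4 and 334, 324, 280 and 365 CPM across KO_BLM replicates 1 to 4, without overlap (log2 fold change −0.35 with SE 0.09, adjusted p = 0.0148 by edgeR). Only limma on log2(FPKM + 1) did not call it (adjusted p = 0.0509, range 0.00156 to 0.0509 across alternatives).

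Osmr (NCBI Gene 18414, chr15:6813568-6874968), the oncostatin M receptor chain, fell most among receptors. It was at 206, 181, 189 and 265 CPM across WT_BLM replicates 1 to 4 and at 101, 96.9, 91.5 and 155 CPM across KO_BLM replicates 1 to 4. Replicate 4 was the highest library in each group, and the groups did not overlap. The decrease was 1.89-fold (log2 fold change −0.92 with SE 0.18, adjusted p = 0.00364 by edgeR).

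Lifr (NCBI Gene 16880, chr15:7090610-7197489), the LIF receptor chain, rose instead. It was at 89.8, 88.0, 88.7 and 93.2 CPM across WT_BLM replicates 1 to 4, the tightest group of any member relative to its mean, and at 102, 115, 115 and 105 CPM across KO_BLM replicates 1 to 4. The groups did not overlap, and the increase was 1.22-fold (log2 fold change 0.28 with SE 0.07, adjusted p = 0.0123 by edgeR). Lifr and Osmr are neighbours on chromosome 15, 215641 bases apart and on opposite strands, yet moved in opposite directions. Lif and Osm, 16541 bases apart on the same strand of chromosome 11, both fell.

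Il11ra1 (NCBI Gene 16157, chr4:41760443-41769473), the alpha receptor of interleukin 11, rose 1.49-fold while its ligand gene fell. Its levels were 55.5, 56.0, 56.6 and 46.0 CPM across WT_BLM replicates 1 to 4 and 92.2, 81.0, 74.7 and 71.0 CPM across KO_BLM replicates 1 to 4, without overlap (log2 fold change 0.57 with SE 0.10, adjusted p = 0.00238 by edgeR). Il11ra1 has near-identical copies, of which Il11ra2 had 68 counts over all 8 libraries and Gm13305 had 3, so reads shared between copies may be lost or misplaced. Ccl27a overlaps it on the other strand, had 619 counts in all and also rose (log2 fold change 1.17, edgeR adjusted p = 0.00703). How the counting used strand is not given, so reads of this pair may be mixed, although the deposited table gives Il11ra1 many more counts.

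Il6ra (NCBI Gene 16194, chr3:89869324-89913196), the alpha receptor of interleukin 6, did not pass. It was at 30.0, 25.2, 25.4 and 28.6 CPM across WT_BLM replicates 1 to 4 and at 31.8, 29.1, 23.9 and 19.9 CPM across KO_BLM replicates 1 to 4, where the groups overlapped and the knockout group held both the highest and the lowest library. The log2 fold change was −0.06 (SE 0.14, adjusted p = 0.755 by edgeR). It turned positive with uncorrected library totals (0.022) and when KO_BLM replicate 4 was left out (0.045).

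**Figure D2:**
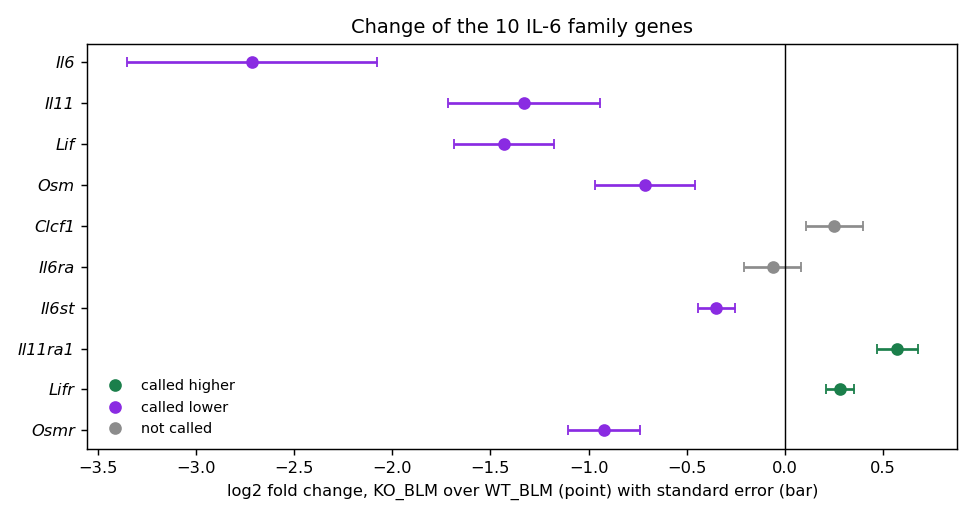
Fitted log2 fold change of KO_BLM over WT_BLM (point) with its standard error (bar) for the 10 members, coloured by whether the edgeR adjusted p was under 0.05. Il6 has the largest decrease and the widest error, and Il11ra1 and Lifr are the members to the right of 0 that passed.

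To compare members with each other, levels were taken per length, on the FPKM scale (fragments scaled to gene length and library total) that the authors deposited. In WT_BLM the order was Il6st at 70.5 ± 2.02 FPKM (SD, n = 4), Osmr at 40.1 ± 6.07, Il11ra1 at 26.5 ± 3.13, Clcf1 at 9.58 ± 1.80, Lifr at 8.11 ± 0.0795, Il6ra at 7.84 ± 0.505, Lif at 7.32 ± 1.91, Osm at 2.60 ± 0.672, Il6 at 2.10 ± 1.57 and Il11 at 1.87 ± 1.23 FPKM. The ranges of the 4 libraries overlapped between neighbours from Clcf1 to Lif and again from Osm to Il11, so those orders are not resolved. In KO_BLM, Il11ra1 at 41.8 ± 3.80 FPKM stood above Osmr at 22.7 ± 6.56 FPKM in all 4 libraries, the reverse of the order in all 4 WT_BLM libraries. Clcf1 and Lifr still overlapped in KO_BLM, at 12.1 ± 1.60 and 10.5 ± 0.711 FPKM. Lif dropped to 2.90 ± 1.22 FPKM there, Osm was at 1.69 ± 0.522, Il11 at 0.783 ± 0.166 and Il6, the lowest mean, at 0.340 ± 0.199 FPKM. The KO_BLM ranges of Lif and Osm overlapped, as did those of Il11 and Il6. Within each of the 4 libraries, however, Lif was above Osm and Il11 above Il6.

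The make-up of the ligand transcripts was as follows. Clcf1 held 34.1% to 49.2% of the summed FPKM of the 5 ligands in WT_BLM libraries and 54.5% to 74.4% in KO_BLM libraries. Lif held 29.6% to 32.1% and 12.1% to 25.9%, and Il6 3.14% to 17.4% and 1.20% to 3.50%. The sum itself overlapped, at 19.0 to 31.3 FPKM in WT_BLM and 16.1 to 19.3 FPKM in KO_BLM. Among the receptors, Osmr went from 23.4% to 30.9% of the summed FPKM in WT_BLM to 13.8% to 20.8% in KO_BLM, and Il11ra1 from 13.9% to 19.1% up to 24.7% to 32.6%. A share also grows where the other genes of the sum fall, and Clcf1 itself was not called, so its larger share does not show a rise of Clcf1. These shares are a description with no test.

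**Figure D3:**
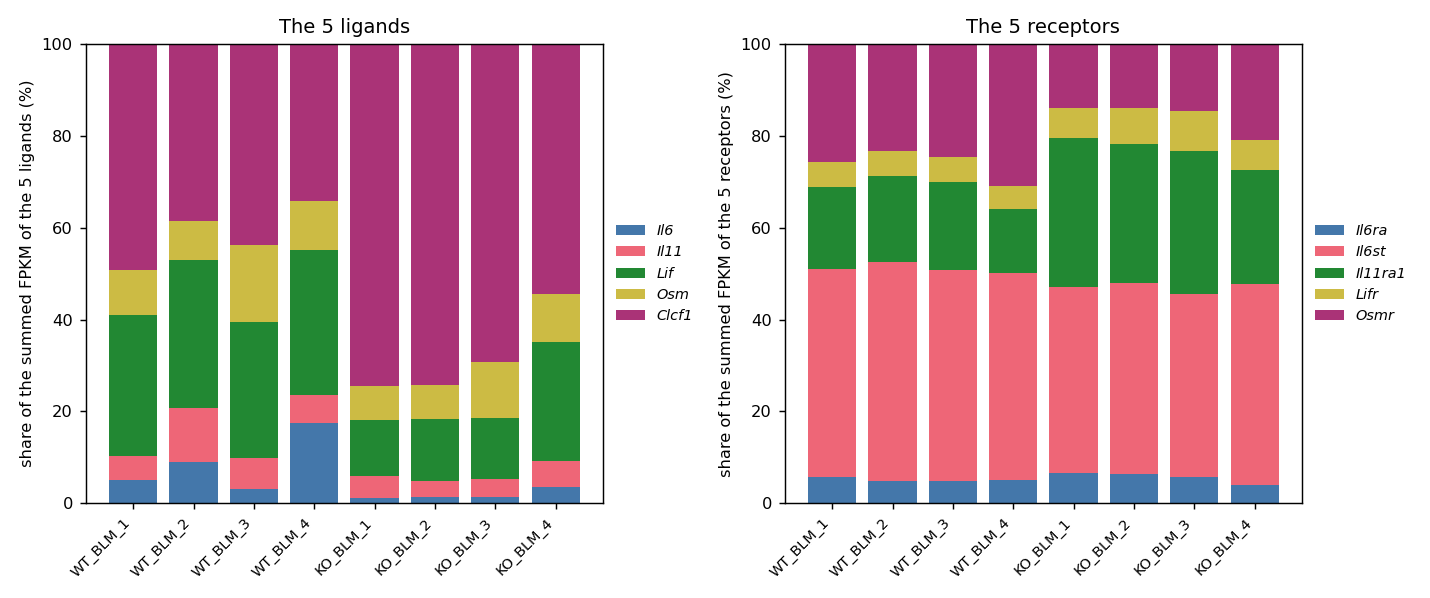
Share in percent of the summed FPKM of the 5 ligands (left) and of the 5 receptors (right) that each gene holds in each library, as stacked bars from 0 to 100. Clcf1 takes 54.5% or more of the ligand sum in every KO_BLM library and 49.2% or less in every WT_BLM library. Its own level was not called different, and a share also grows where other genes of the sum fall.

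Whether members moved apart within the same libraries was tested on the difference in log2 CPM of 9 pairs, with two-sided exact permutation tests of 4 against 4 libraries, whose smallest possible p is 0.0286. Osmr minus Lifr went from 1.21 ± 0.211 in WT_BLM to −0.01 ± 0.400 in KO_BLM (SD, n = 4), a change of −1.22 on the log2 scale. Clcf1 minus Lif went from −0.98 ± 0.263 to 0.74 ± 0.713, a change of 1.73. Relative to Il6st, Il11ra1 changed by 0.93, Lifr by 0.64 and Osmr by −0.58. Each of these 5 differences had the smallest p that the exact test allows, 0.0286, and a Benjamini-Hochberg value over the 9 pairs of 0.0514, so none of the 9 passed a threshold of 0.05 after adjustment. For Osmr minus Lifr, Il11ra1 minus Il6st and Lifr minus Il6st that smallest p was fixed in advance. Their genes moved in opposite directions, each without overlap between the groups, so these tests add nothing to the single-gene results. The other 4 pairs had larger values: Il11 minus Il6 changed by 1.26 (exact permutation p = 0.0571), Osm minus Lif by 0.75 (0.0857), Lif minus Il6 by 0.94 (0.143) and Il6ra minus Il6st by 0.27 (0.200). Unequal decreases among Il6, Il11, Lif and Osm were thus not shown. Without KO_BLM replicate 4 the 5 pairs above and Il6ra minus Il6st, 6 in all, had an adjusted exact permutation p of 0.0429, with changes of −1.41 for Osmr minus Lifr and 2.08 for Clcf1 minus Lif. The smallest possible p was still 0.0286 there, and its adjusted value was lower because Il6ra minus Il6st reached it too. No other omission of a library brought any pair under 0.05.

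Related genes of the same cytokine and receptor group gave 2 decreases and 1 increase among 6 tested, beside 20.8% and 20.7% of all tested genes. Cntfr, the alpha receptor that CLCF1 binds, fell from 7.79 ± 1.27 to 4.44 ± 0.972 CPM (n = 4, SD; log2 fold change −0.81, edgeR adjusted p = 0.00966). Il27ra, the interleukin 27 receptor of lymphocytes, rose from 6.90 ± 4.09 to 15.6 ± 2.39 CPM (log2 fold change 1.17, edgeR adjusted p = 0.0365). The call of Il27ra was lost when WT_BLM replicate 1 was left out (adjusted p = 0.0932), when any 1 of the KO_BLM libraries was left out (0.0502 to 0.0821) and when low-count genes were kept (0.0526), with alternatives running from 0.00653 to 0.0932. Cntf (log2 fold change −0.82, edgeR adjusted p = 0.0672), Ctf1 (0.48, 0.0784) and Ebi3 (0.40, 0.252) did not pass. Il27, Il31, Il31ra and Il11ra2 were too low to test, with Il31 at 0 counts in 7 of 8 libraries and at 2 counts in WT_BLM replicate 4.

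Downstream of the receptors, 7 of 18 kinases, STATs and adaptors fell and 2 rose, with a median log2 fold change of −0.08. The shares called over all tested genes were 20.8% lower and 20.7% higher. Stat3, the main transcription factor of gp130 signalling, fell from 382 ± 36.3 to 261 ± 13.3 CPM (n = 4, SD; log2 fold change −0.55 with SE 0.09, adjusted p = 0.00138 by edgeR). Its values were 375, 365, 355 and 435 CPM across WT_BLM replicates 1 to 4 and 275, 254, 247 and 270 CPM across KO_BLM replicates 1 to 4, well apart. The adaptor Shc1 (log2 fold change −0.42), the phosphatase Ptpn11 that gp130 recruits (−0.55) and Akt1 (−0.59) also fell, as did Jak2 (−0.43), although 1 KO_BLM library of Jak2 was above 1 WT_BLM library and the 3 limma fits on FPKM did not call it (adjusted p 0.0519 to 0.0692). Jak1, the kinase most tied to gp130, did not pass (log2 fold change −0.22, edgeR adjusted p = 0.0593). Stat5b (log2 fold change 0.49, edgeR adjusted p = 0.0115) rose.

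Of 13 pathway inhibitors 1 fell, 1 rose and 11 were not called, where 20.8% and 20.7% of all tested genes fell and rose. The one that fell is Socs3, the feedback inhibitor that binds gp130, at 254, 246, 242 and 297 CPM across WT_BLM replicates 1 to 4 and 59.0, 59.8, 78.5 and 90.0 CPM across KO_BLM replicates 1 to 4. The highest knockout library was under every wild-type one by a wide margin, and the decrease was 3.62-fold (log2 fold change −1.85 with SE 0.15, adjusted p = 2.73e-05 by edgeR). The Socs3 promoter window (chr11:117969367-117969616, minus strand) holds 1 STAT match, TTCTTAGAA, beginning 154 bases before the start. Its relatives Socs1 (log2 fold change 0.21), Socs2 (−0.40), Cish (−0.14), Socs5 (−0.24) and Socs7 (−0.19) did not pass, with edgeR adjusted p from 0.0537 for Socs2 upward. DESeq2 (adjusted p = 0.0319) and the fit with the replicate number as a block (0.0475) called Socs2 lower. Ptprc, the leukocyte phosphatase CD45, rose (log2 fold change 0.73, edgeR adjusted p = 0.00746).

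Genes known as STAT3 targets fell more often than they rose: 16 of 25 fell, 2 rose and 7 were not called, with a median log2 fold change of −0.62 against 0.0025 over all tested genes, of which 20.8% fell. Timp1, an inhibitor of metalloproteinases, was lowest relative to wild type, at 350 ± 109 and 30.01 ± 15.04 CPM (SD, n = 4), an 11.7-fold decrease (log2 fold change −3.54 with SE 0.36, adjusted p = 0.000112 by edgeR). Myc fell 4.08-fold, Tnfrsf12a, the TWEAK receptor, 3.59-fold, Il4ra 2.51-fold, Fosl2 2.37-fold and Junb 2.22-fold. Fosl2, Junb and Fos (log2 fold change −1.45, edgeR adjusted p = 0.00416) encode AP-1 subunits. Jun, which also encodes an AP-1 subunit and is not in this list, rose (0.52, 0.0153). Vegfa (log2 fold change 0.69, edgeR adjusted p = 0.00118) and Pim2 (0.68, 0.0113) rose. Many of these genes answer to other signals too, so the count does not measure STAT3 activity. The list was drawn up with earlier results of these data known, so its count beside that of all genes is a description and no test.

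Acute phase genes, the classical outputs of IL-6 in liver, split by gene in lung, with 7 of 16 tested lower, 1 higher and 8 not called (median log2 fold change −0.43). For all tested genes the calls were 20.8% lower and 20.7% higher. Serpina3n, a serine protease inhibitor, went from 1458 ± 249 to 261 ± 27.9 CPM (n = 4, SD; log2 fold change −2.48 with SE 0.14, adjusted p = 3.81e-06 by edgeR). Its close paralog Serpina3m was 8.05-fold lower, and reads can be shared between them. Saa3, serum amyloid A3, was uneven, at 92.0, 474, 125 and 97.2 CPM across WT_BLM replicates 1 to 4 and 5.45, 8.87, 18.1 and 39.0 CPM across KO_BLM replicates 1 to 4. It was lower in every KO_BLM library, and its fold rests partly on single libraries: 11.01-fold in all, 5.86-fold without WT_BLM replicate 2 and 18.2-fold without KO_BLM replicate 4. A2m was 6.92-fold and Lrg1 2.69-fold lower. Itih4 rose 3.98-fold, from 22.5 ± 3.22 to 89.7 ± 8.40 CPM (log2 fold change 1.99, edgeR adjusted p = 4.17e-06). Lcn2 (log2 fold change 0.06, edgeR adjusted p = 0.889), Hp (0.26, 0.173) and C3 (−0.17, 0.686) did not pass.

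**Figure D4:**
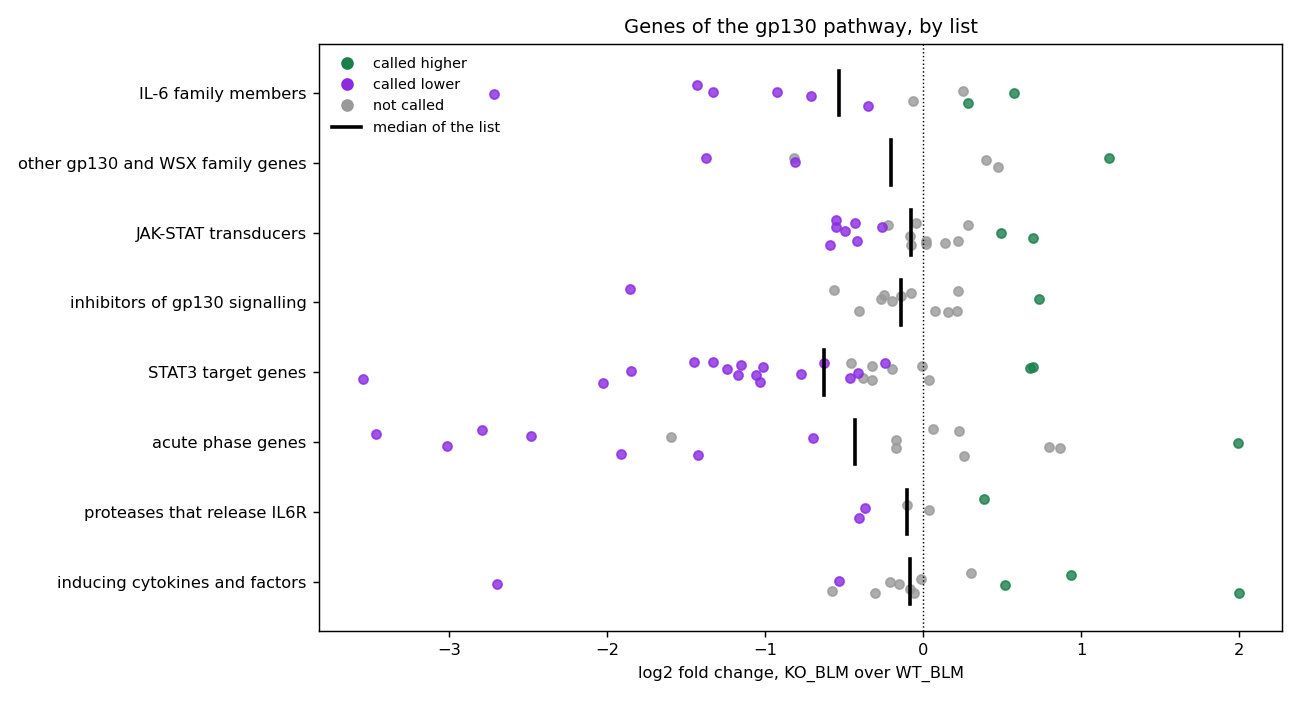
Log2 fold change of KO_BLM over WT_BLM for each tested gene of the 8 lists, with the list's median as a black bar and colours for genes called higher, lower or not called. The STAT3 target list has its median at −0.62 with 16 of 25 genes lower, and single genes such as Socs3 at −1.85 stand apart from their lists. The lists were chosen with earlier results of these data known.

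Of factors known to induce these cytokines, 2 of 13 fell and 3 rose, beside 20.8% and 20.7% of all tested genes. Fosl1, an AP-1 subunit, fell 6.47-fold, from 9.31 ± 3.18 to 1.43 ± 0.439 CPM (SD, n = 4; edgeR adjusted p = 0.000151), and Tgfb1, an inducer of Il11, 1.44-fold (adjusted p = 0.00518). Il33, an alarmin of epithelium and stroma, rose 3.99-fold (edgeR adjusted p = 0.00113), Il1a 1.91-fold and Jun, also an AP-1 subunit, 1.43-fold. Il1b (log2 fold change −0.31, edgeR adjusted p = 0.552) and Tnf (−0.08, 0.809), the cytokines best known to induce Il6, did not pass, nor did Nfkb1 and Rela. Among 5 genes for release of the IL-6 receptor from the membrane, the protease Adam10 fell (log2 fold change −0.41, edgeR adjusted p = 0.0130), Rhbdf1 fell (−0.37, 0.0371) and Erap1 rose (0.38, 0.0108), while Adam17 (0.04, 0.765) did not pass. Adam10 was not called with uncorrected library totals (adjusted p = 0.0525), in limma on log2(FPKM + 1) (0.0638) or on log2(FPKM + 0.1) (0.0599), and its adjusted p ran from 0.00099 to 0.0638 over the alternatives. Rhbdf1 was not called with uncorrected totals (adjusted p = 0.0581), in the 3 limma fits on FPKM, or when WT_BLM replicate 1, 3 or 4, or KO_BLM replicate 2, 3 or 4, was omitted (0.0545 to 0.0973), and its adjusted p ran from 0.0141 to 0.0973 over the alternatives.

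Markers of several cell types also differed between the groups. For all tested genes the shares were 20.8% lower and 20.7% higher. Of 11 fibroblast markers 8 fell and 2 rose, and their summed level was 8503 to 9627 CPM in WT_BLM and 3210 to 3429 CPM in KO_BLM, beside the decreases of Il6, Il11, Lif and Osmr. Most of this sum came from the collagen genes Col3a1, Col1a2 and Col1a1, with means of 2544, 2618 and 2427 CPM in WT_BLM and 1135, 594 and 441 CPM in KO_BLM. It therefore does not measure the number of fibroblasts. Tcf21 (mean 32.7 to 105 CPM) and Pi16 (13.3 to 20.8 CPM) rose, and Pdgfra was not called (edgeR adjusted p = 0.206). Within KO_BLM the fibroblast sum varied little, at 3224, 3297, 3210 and 3429 CPM in replicates 1 to 4. Il6, Il11, Lif and Osmr were also highest in KO_BLM replicate 4, but differed more, with Lif at 24.1 CPM there and at 10.7, 12.7 and 13.7 CPM in replicates 1 to 3. Within WT_BLM the fibroblast sum was 9627, 8503, 9259 and 8943 CPM in replicates 1 to 4. It was lowest there in replicate 2, where Lif and Il11 were highest, while Il6 and Osmr were highest in replicate 4. Of 12 macrophage and monocyte markers 9 fell and 1 rose, with sums of 1825, 1862, 1879 and 1966 CPM across WT_BLM replicates 1 to 4 and 562, 701, 1178 and 970 CPM across KO_BLM replicates 1 to 4. Replicate 3 was the highest knockout library for that sum and for Osm, but in WT_BLM the sum was highest in replicate 4 and Osm in replicate 3. Of 6 smooth muscle markers 4 fell, with sums of 1157 to 1264 and 494 to 677 CPM. Of 7 T cell markers 6 rose (26.7 to 64.1 CPM summed in WT_BLM, 89.1 to 162 CPM in KO_BLM), and all 6 natural killer cell markers rose (5.39 to 16.7 and 53.7 to 110 CPM), beside Il27ra and Ptprc. All 6 type 2 alveolar markers rose, from 8190 to 11710 CPM summed up to 21765 to 33991 CPM. Endothelial markers had 4 of 7 higher and 1 lower, at 2394 to 3007 CPM summed in WT_BLM and 2435 to 3701 CPM in KO_BLM, which overlap. Neutrophil markers gave 1 of 6 tested lower and 0 higher, with sums of 83.8 to 176 and 68.2 to 191 CPM, and the neutrophil genes Ly6g, Mpo and Camp had 0 counts in at least 1 library. All 6 tested airway markers and 5 of 7 B and plasma cell markers rose. The T cell marker Trac was also listed but is not in the deposited table. That table holds no gene at 0 counts in all libraries, so it cannot show which markers were undetected. The part of these cell types in the changes of the IL-6 family genes was not tested.

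The genes whose log2 CPM followed a member most closely over the 8 libraries were sought for Lif, Il11ra1, Osmr and Il6, among genes of at least 5 CPM. The 8 points form 2 genotype groups, so any gene with a matching difference gives a high r, and the values are a description. For Il6 they were Tnfaip3 (Pearson r = 0.986), an inhibitor of NF-kB signalling, Jak2 (0.982) and Pno1 (0.977). For Lif they were Actr2 (r = 0.993), the immediate early gene Egr2 (0.991) and Cct5 (0.990). For Il11ra1 they were Pgm5 (r = 0.996), Rasgrp2 (0.994) and Nipal3 (0.993), all 3 higher in KO_BLM. For Osmr they were Yipf5 (r = 0.988), Rps6ka3 (0.985) and Nras (0.985). Their log2 fold changes were of other sizes in most cases: Actr2 was at −0.31 and Egr2 at −1.43 against −1.43 for Lif, while Pgm5 at 0.95, Rasgrp2 at 1.45 and Nipal3 at 0.92 were above the 0.57 of Il11ra1.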

How the data were processed

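RNA from whole lung was sequenced in 4 WT_BLM and 4 KO_BLM libraries. Per the labels' protocols, libraries were made with a stranded mRNA kit from TRIzol RNA. Per gene symbol, the authors deposited raw counts (whole numbers, not normalized) and FPKM values. Named in the submitters' processing notes are the mm10 build and Cufflinks, DESeq, HTSeq and Trimmomatic. Which aligner, annotation and strandedness were used is not given. All FPKM values the authors deposited (100% within a relative tolerance of 1e-06) equal the count over the column total and 1 length per gene, so they add no independent measurement. PHT2 in a column name marks a knockout library, and 0 columns went unused.

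Counts were tested with edgeR 4.0.16 in R 4.3.3 (TMM, filterByExpr with minimum count 10 and minimum total 15, robust glmQLFit, quasi-likelihood F test), with Benjamini-Hochberg adjustment over 14746 genes and a threshold of 0.05. Standard errors are the size of the log2 fold change divided by the root of F. Pairs of members were compared on log2 CPM with a prior count of 0.5 by exact permutation over 70 arrangements. Replicate libraries differed beyond sampling noise (chi-square divided by its degrees of freedom, 7.48 to 58.1). The steps were tested on simulated counts with far fewer changed genes than were called here and the same spread setting for every gene. That test therefore does not cover the conditions of these data. Alternatives, 1 at a time, were RLE size factors, uncorrected library totals, keeping low-count genes, a strict filter (20 counts in every library of a group), DESeq2 1.42.0, limma 3.58.1 on voom values with quality weights, limma on log2(FPKM + 1) for all genes or those reaching 1 FPKM and on log2(FPKM + 0.1), a block for replicate number, non-robust estimation, and omission of each library. For pairs of members they were a prior count of 2, log2(FPKM + 0.1), pairing by number and omission of each library. The members and gene lists were chosen with earlier results of these data known. Named were all members, related cytokine genes, up to 6 genes of smallest p from each other list, and the 3 closest genes by correlation for 4 members. Genes of a list direction with 5 or fewer calls, overlapping genes and further list genes given with values (Jak1, the other Socs genes, Fos, Lcn2, Hp, C3, Il1b, Tnf, Nfkb1, Rela, Pdgfra) were added after their values were seen. Loci come from RefSeq on GRCm38.p6. In limma on FPKM, differences are on the log2(FPKM + pseudocount) scale, which understates changes of low genes. Counts over a list cover all its tested genes, of which some are not reported here by name.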

Additional observations from a re-analysis of the deposited data

Results flagged for a closer look

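In groups of 4 libraries, a value was singled out where its gap to the nearest other library passed Dixon's 95% critical value as a share of the group's range. Of 111 groups examined 8 met this, and chance gives about 1 in 20. Among members, Il11ra1 in WT_BLM replicate 4 was at 46.0 CPM while the other 3 lay from 55.5 to 56.6 CPM, and Osmr in KO_BLM replicate 4 was at 155 CPM while the others lay from 91.5 to 101 CPM. WT_BLM replicate 4 also stood apart for Fosl2 (264 CPM, others 163 to 166), Fosl1 (14.1 CPM, others 7.45 to 8.25) and Il31 (0.109 CPM from 2 counts, others 0). KO_BLM replicate 4 stood apart for Il33 (186 CPM, others 98.9 to 109) and Pias1 (89.6 CPM, others 74.8 to 75.7). Saa3 in WT_BLM replicate 2 was at 474 CPM, others 92.0 to 125.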

How the results depend on the processing

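Of 67 single genes examined, 46 kept their direction and their side of the threshold in every alternative that tested them, among them the members Il6, Lif, Clcf1, Il11ra1, Lifr and Osmr (the strict filter left Il6 untested). Il6ra, never called, changed sign with uncorrected library totals (log2 fold change 0.022), in limma-voom (0.042), in limma on log2(FPKM + 1) (0.0069, with or without the 1 FPKM filter) and on log2(FPKM + 0.1) (0.0061), and ranged from −0.17 to 0.045 when each library was left out. Adam17, also never called, changed sign in limma-voom (−0.080) and ranged from −0.038 to 0.11 when each library was left out. The 6 members called lower became 3 in limma on log2(FPKM + 1), and 4 to 6 with a library left out, while 2 were called higher throughout. Related cytokine genes called higher numbered 1 in the report, 0 when low-count genes were kept, and 2 in limma-voom and in each limma fit on FPKM (0 to 2 with a library left out). Transducers called higher numbered 1 when low-count genes were kept and 4 in limma-voom (1 to 3 with a library left out). Inhibitors called higher numbered 2 with uncorrected totals, in limma-voom, in limma on log2(FPKM + 1) with the filter and under the replicate block, and inhibitors called lower numbered 3 in DESeq2, 2 in limma-voom and 2 under the block (1 to 2 for each with a library left out). Acute phase genes called higher numbered 2 in limma-voom (1 to 2 with a library left out). Release genes called lower numbered 0 with uncorrected totals and in limma on log2(FPKM + 1) and log2(FPKM + 0.1), 1 with the filter, and 1 to 2 with a library left out. The cause of these differences was not tested. With a library left out, Clcf1 minus Lif changed by 1.57 to 2.08, Il6ra minus Il6st by 0.19 to 0.46, Il11ra1 minus Il6st by 0.83 to 1.04, Lifr minus Il6st by 0.54 to 0.71, Osmr minus Il6st by −0.70 to −0.49 and Osmr minus Lifr by −1.41 to −1.11 on the log2 scale.

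Same-numbered libraries of the groups did not deviate together (correlations −0.093 to 0.074), and 1 of 8 libraries correlated best with its own number, so the numbers were not treated as pairs. Under the replicate block, 2878 genes were higher and 2824 lower, 6 members fell and 2 rose, and the pair tests, whose smallest possible exact permutation p is then 0.125, gave adjusted values of 0.161 or more. Low counts limit Il6, Il11 and Osm most.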
